A study of Mus musculus with 79 samples.

Results

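The antioxidant genes examined here were 10 of the 55471 gene identifiers counted in the medial prefrontal cortex (mPFC) and the ventral hippocampus (vHipp) of male mice. They were chosen by name, for their place in cystine uptake, the glutathione and thioredoxin cycles and the response driven by the transcription factor NRF2. They comprised Slc7a11, Gclc, Gclm, Gsr, Gpx4, Txnrd1, Srxn1, Nfe2l2, Nqo1 and Hmox1. Each symbol was matched to 1 identifier, and all 10 genes passed the filter on low counts in both regions. Slc7a11 had been displayed by the study for its response to stress in these libraries, so its direction here was not independent evidence. The study compared stress separately by social rank and treatment, with the social group in its model. Ranks are pooled here, so the estimates are not of the same comparison.

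Bulk mRNA was sequenced from wild-type male CD-1 mice, an outbred stock, aged 9 to 10 weeks and housed 4 per cage. Mice had either been left undefeated (CTRL) or been exposed for 21 days to chronic social defeat stress (CSDS), in which an aggressor mouse repeatedly attacks the animal. A single intraperitoneal dose of saline or of (R,S)-ketamine, an NMDA receptor antagonist, at 10 mg/kg followed, and punches of both regions were taken 7 days later. Each of the 4 groups held 10 mice, which gave 40 vHipp and 39 mPFC libraries, with 9 mPFC libraries for ketamine-treated CSDS mice. Every mouse, CTRL included, had received an injection, and social rank and the arena of testing were not available as groups. A punch holds neurons, glia, vessels and membranes, so fewer cells of a type and less RNA per cell cannot be told apart in these values.

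Library totals ranged from 11726129 to 34501588 counts in the mPFC and from 11782570 to 41767119 in the vHipp. The region labels held against marker genes: the summed level of 6 cortical markers was 458.1 to 616 in the mPFC, in counts scaled to the library total (CPM), and 107.2 to 179 in the vHipp, and that of 6 hippocampal markers was 203 to 522 and 540 to 1083. Certain libraries stood apart in markers of other cells. The vHipp library of mouse 11 (CSDS, ketamine) had a summed level of 3115 CPM for 6 astrocyte markers against 1845 in the next highest vHipp library, and the mPFC library of mouse 30 (CTRL, saline) had 229 CPM for 6 meningeal fibroblast markers against 164 in the next. In the vHipp of mice 9 and 13 (CSDS, saline), choroid plexus markers summed to 703 and 94.97 CPM, against at most 32.5 CPM elsewhere in that region. Several results that rest on the library of mouse 11 or mouse 30 are given with and without it. The p-values measure the spread between these mice. In the study, stress was assigned to whole social groups of cagemates and not to single mice. The main fits and the permutation p-values count cagemates as independent. The stress p-values therefore do not measure the spread between social groups.

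Cells take up cystine, the oxidized pair of cysteine molecules, through an exchanger that releases glutamate in return, and reduce it to cysteine, the limiting building block of glutathione. Glutathione and thioredoxin then carry electrons from NADPH to peroxidases that remove hydrogen peroxide and lipid peroxides. NRF2, held at low levels by KEAP1-directed degradation and released under oxidative stress, binds antioxidant response elements and drives many of the enzymes of both cycles, and in brain this response is best known from astrocytes.

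The core of that element, TGACNNNGC, was searched on both strands in the RefSeq promoters of the GRCm38.p6 build, from 250 bases before each annotated start to 50 bases after it. The table held 12 promoters of 7 of the 10 genes, and 4 of the 12 promoters, of 4 of the 7 genes, had a match. Of all 32851 promoters of that length, 12.4% held the letters, as did a promoter of 14.0% of all 27025 genes. The 4 matches are shown because these genes stand at different steps of the pathway, with the matched letters in capitals and 10 bases on either side, read 5′ to 3′ on the strand of the gene.
Nfe2l2: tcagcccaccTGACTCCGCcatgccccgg
Gclm: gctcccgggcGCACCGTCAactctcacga
Txnrd1: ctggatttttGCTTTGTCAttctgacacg
Srxn1: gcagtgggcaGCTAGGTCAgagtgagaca
The Nfe2l2 stretch (chr2:75704885-75704913, minus strand) had the element in the direction of the gene, 240 bases before the start. The Gclm stretch (chr3:122245413-122245441, plus strand) and the Txnrd1 stretch (chr10:82859104-82859132, plus strand) had it on the opposite strand before the start, the latter 92 bases before the second of 3 annotated Txnrd1 starts. The Srxn1 stretch (chr2:152105542-152105570, plus strand) had it on the opposite strand 28 bases after the start. The windows of Slc7a11, Gpx4 and Nqo1 did not hold these letters. A match of letters is a description and no measure of binding.

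Per kilobase of exon, Gpx4 had the highest level of the 10 genes in both regions, with 65.9 ± 6.18 CPM per kb in the mPFC (SD, n = 39) and 66.2 ± 8.09 in the vHipp (n = 40). Srxn1 came next with 27.0 ± 2.50 and 29.3 ± 4.04 CPM per kb, and Gclc followed with 14.6 ± 0.772 and 15.7 ± 1.11. These were the only neighbors in the order whose ranges over libraries did not overlap. Gsr, Txnrd1 and Gclm held ranks 4 to 6 in both regions, from 11.3 CPM per kb for Gsr in the vHipp to 6.69 for Gclm there. Slc7a11 was the 7th gene of the mPFC, at 4.83 ± 2.17 CPM per kb, and the 10th of the vHipp, at 2.16 ± 0.734. Nfe2l2, Hmox1 and Nqo1 lay between 2.33 and 3.22 CPM per kb, and their ranges overlapped each other and that of Slc7a11 in both regions.

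**Figure D1:**
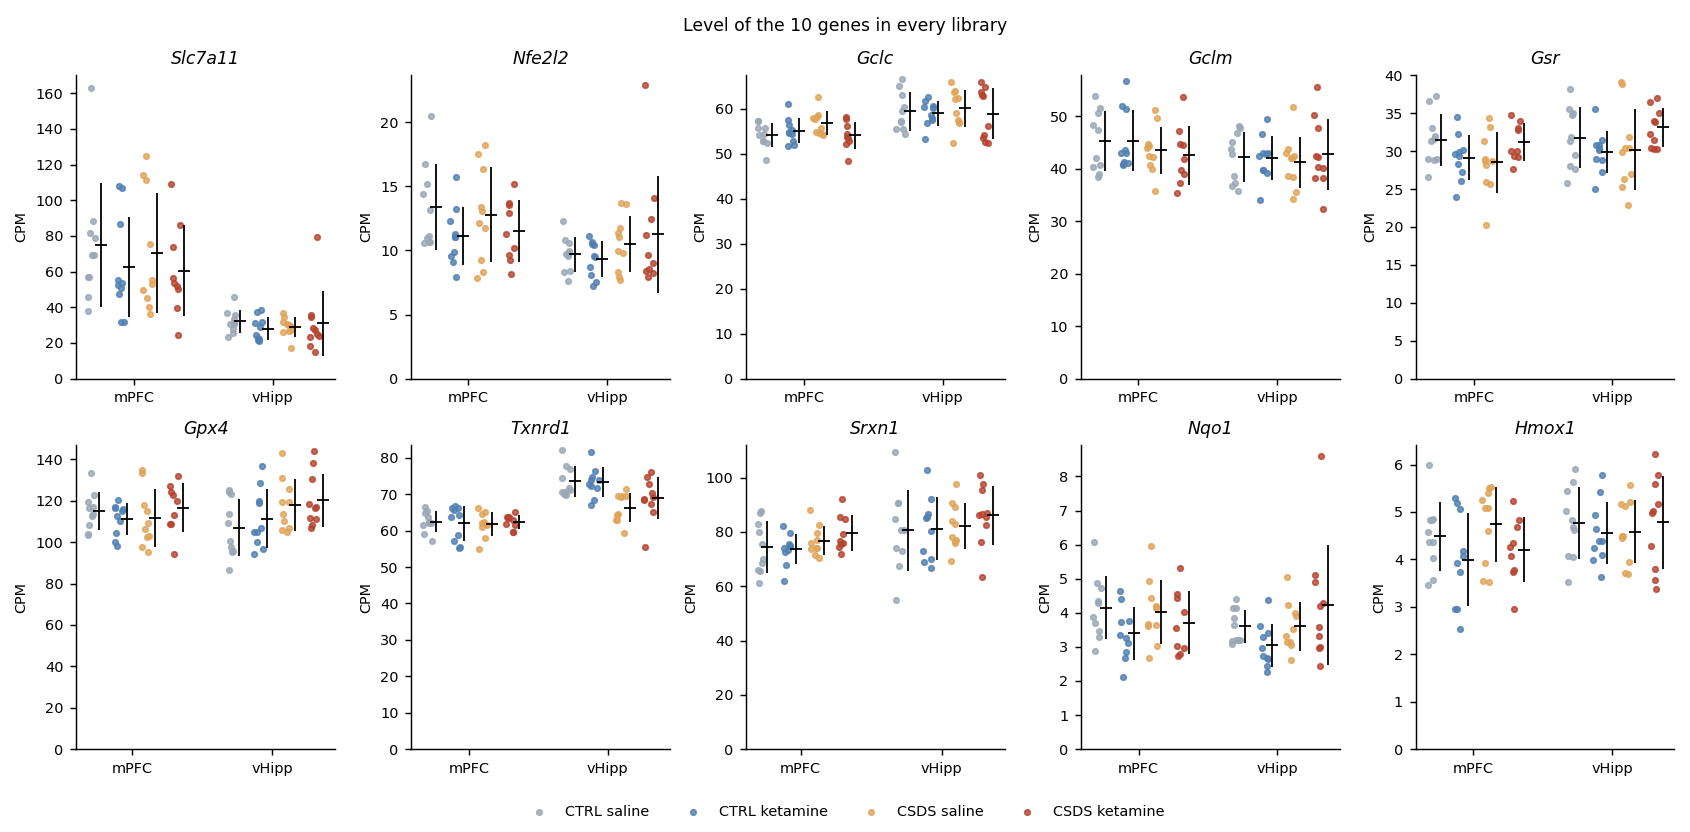
Level of each of the 10 genes in CPM (vertical axis, from 0), with 1 point per library, colored by stress and treatment, and bars for the mean ± SD of each group, in the mPFC (left of each panel) and the vHipp (right). Slc7a11 spread from 24.4 to 163 CPM in the mPFC and from 14.8 to 79.4 in the vHipp, whereas groups within a region overlapped for every gene.

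The regions differed most for the cystine exchanger. Slc7a11, which encodes the transport subunit xCT (chr3:49892526-50443614, minus strand, GRCm38), ranged from 24.4 to 163 CPM in the mPFC with a median of 55.4, and from 14.8 to 79.4 CPM in the vHipp with a median of 29.4. It was higher in the mPFC by 1.16 on the log2 scale (SE 0.12, adjusted p = 2.73e-14, edgeR quasi-likelihood test) and in 36 of 39 mice with both regions, and 11 mPFC libraries lay above every vHipp library. The ranges overlapped in the rest. Without the mPFC library of mouse 30 the difference was 1.11, and without the vHipp library of mouse 11 it was 1.22.

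Of the 10 genes, 2 were called higher in the mPFC and 3 lower at an adjusted p under 0.05, in a contrast that called 48.9% of all 31534 genes tested, 24.5% higher and 24.4% lower (53.3% at an unadjusted p under 0.05). The median of the 10 differences was -0.03, and that of all genes was -0.0003. The share of the 10 genes called was thus near the background. None of the 10 genes had ranges that separated the regions, as 2.92% of all genes did.

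**Figure D2:**
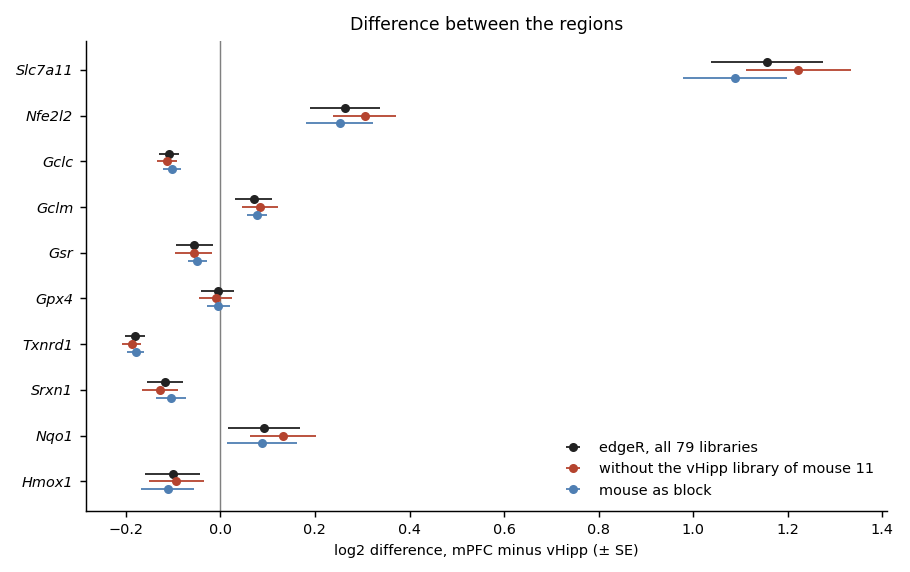
Difference between the regions on the log2 scale (horizontal axis, mPFC minus vHipp) for each gene, with bars for the SE, over all libraries, without the vHipp library of mouse 11, and with the mouse as a block. Slc7a11 stood at 1.16, 1.22 and 1.09, and over all libraries the other 9 genes lay between -0.18 and 0.26.

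In glutathione synthesis, Gclc, the catalytic subunit of glutamate-cysteine ligase (chr9:77754535-77794485, plus strand), was lower in the mPFC, at 55.0 ± 2.91 CPM against 59.3 ± 4.18 CPM in the vHipp (SD, n = 39 and 40). The difference was -0.11 (SE 0.022, adjusted p = 1.34e-05, edgeR) and was present in 32 of 39 mice. Gclm, its modifier subunit (chr3:122245557-122270732, plus strand), had 44.2 ± 5.35 and 42.1 ± 5.09 CPM and a difference of 0.07 that did not pass the test (adjusted p = 0.131). The exons of Gclm share 296 bases with Gm17494 on the opposite strand and 244 bases with Gm6061 on its own, and the strand setting of the counting was not given in the sources used here, so its counts are uncertain to that extent. Gsr, glutathione reductase (chr8:33652523-33698163, plus strand), had 30.1 ± 3.43 and 31.2 ± 3.93 CPM (difference -0.05, adjusted p = 0.245). That test did not pair the regions of a mouse, and with the mouse as a block Gclm and Gsr were both called (adjusted p = 0.00144 and 0.0409, edgeR). Gpx4, the selenoenzyme that reduces lipid peroxides in membranes (chr10:80047166-80056439, plus strand), had 113.5 ± 10.7 and 114.2 ± 13.9 CPM, with an estimated difference of -0.006 (SE 0.034).

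Txnrd1 and Srxn1, of the thioredoxin cycle, were lower in the mPFC. Txnrd1, the cytosolic thioredoxin reductase (chr10:82833951-82897712, plus strand), ranged from 55.0 to 66.8 CPM in the mPFC with a median of 62.3, and from 55.5 to 82.1 CPM in the vHipp with a median of 70.4. Its difference of -0.18 (SE 0.021, adjusted p = 6.12e-12, edgeR) was present in 36 of 39 mice, and 33 of 40 vHipp libraries lay above every mPFC library. The lowest vHipp value was that of mouse 11. Srxn1, sulfiredoxin, which repairs overoxidized peroxiredoxins (chr2:152105516-152111376, plus strand), had 76.003 ± 7.06 and 82.5 ± 11.4 CPM (difference -0.12, SE 0.039, adjusted p = 0.00789) and was lower in the mPFC in 26 of 39 mice.

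Nfe2l2, the gene of NRF2 (chr2:75675513-75704641, minus strand), had 12.2 ± 3.03 CPM in the mPFC and 10.2 ± 2.71 in the vHipp. It was higher in the mPFC by 0.26 (SE 0.074, adjusted p = 0.00169, edgeR) and in 28 of 39 mice, although the highest of all values, 22.9 CPM, was from the vHipp, in mouse 11. The NRF2 targets Nqo1, a quinone reductase (chr8:107388225-107403206, minus strand), and Hmox1, the inducible heme oxygenase (chr8:75093621-75100589, plus strand), had 3.82 ± 0.907 and 4.36 ± 0.827 CPM in the mPFC and 3.62 ± 1.08 and 4.67 ± 0.754 CPM in the vHipp. Their differences from the vHipp, 0.09 and -0.10, did not pass the test (adjusted p = 0.338 and 0.153). Each was called in 1 of 14 alternative fits, over which Nqo1 lay between -0.034 and 0.19 and Hmox1 between -0.17 and -0.035.

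Both regions came from the same mice, and with the mouse as a block 7 of the 10 genes were called, against 49.0% of all genes. The block added Gclm, at 0.08 (SE 0.021, adjusted p = 0.00144, edgeR), higher in the mPFC in 27 of 39 mice, and Gsr, at -0.05 (SE 0.020, adjusted p = 0.0409), lower in 28 of 39. Slc7a11, Gclc and Txnrd1 passed the test in 14 of 14 alternatives. Nfe2l2 and Srxn1 passed in 12 of 14, and lost the call when the mice of set 1 (0.19 and -0.08) or of set 2 (0.19 and -0.09) were left out, where a set is a run of 4 consecutive CTRL mouse numbers with a run of CSDS numbers.

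Markers of other cells were set beside the same background, 24.5% of all genes called higher in the mPFC and 24.4% lower. Of 6 meningeal fibroblast markers, 5 were called higher in the mPFC, with summed levels of 27.0 to 229 CPM (median 67.3) against 19.6 to 102.7 CPM (median 41.0) in the vHipp. Of 6 endothelial markers 3 were called higher in the mPFC, of 6 astrocyte markers 1 was higher and 2 were lower, and of 6 neuronal markers 4 were lower. All 5 erythroid markers were called higher in the mPFC (median 1.02), of 7 choroid plexus markers 2 were higher and 3 lower, of 4 ependymal markers 1 was higher and 1 lower, of 6 microglial markers 1 was higher, and no oligodendrocyte marker was called. The 3 of 6 astrocyte markers called are about the share of all genes called. No marker of these lists was at 0 in all libraries. Their part in the difference of Slc7a11 and of the other genes was not tested.

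Within the mPFC, the level of Slc7a11 moved with several of these marker lists from mouse to mouse. As deviations from group means, its log2 CPM had r = 0.95 with the summed meningeal fibroblast markers (rho = 0.92, adjusted permutation p = 0.000126, n = 39) and r = 0.94 without the 2 libraries farthest from the median of the markers. With astrocyte markers it had r = 0.90 (rho = 0.83, adjusted permutation p = 0.000126; r = 0.87 without 2 libraries) and with neuronal markers r = -0.64 (rho = -0.69; r = -0.67). It was also called with endothelial markers (r = 0.79, rho = 0.76; r = 0.75), with hippocampal markers (r = 0.60, rho = 0.59; r = 0.52) and with microglial markers (r = 0.59, rho = 0.63; r = 0.62), so the relation was not particular to 1 list. The adjusted value of 0.000126 is the smallest that 100000 shuffles within groups gave over the 240 relations computed, of which 68 were called. As a background, r with the same sums was taken for all 15184 genes with a mean of at least 1 CPM in both regions. An r of 0.33 or more in size, the smallest called, was reached by 28.9% of their relations in the mPFC and 32.5% in the vHipp, against 39.2% and 44.2% of those of the 10 genes. In the mPFC, 0.0593% of the 15184 genes had an r as high as Slc7a11 with meningeal fibroblast markers, 0.31% with astrocyte and 0.784% with endothelial markers, and 4.18% one as low with neuronal markers. In the vHipp, Slc7a11 had r = 0.78 with astrocyte markers (rho = 0.69; 2.87% of genes as high), which fell to 0.61 without the libraries of mice 11 and 17, r = 0.69 with endothelial markers (rho = 0.57; r = 0.51 without the same 2) and r = 0.65 with microglial markers (rho = 0.53; r = 0.40 without mice 11 and 16), all called, and its r of 0.42 with meningeal fibroblast markers did not pass (adjusted permutation p = 0.0625).

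Nfe2l2 followed the astrocyte markers in both regions, with r = 0.92 in the mPFC (rho = 0.94) and 0.93 in the vHipp (rho = 0.87), and 0.91 and 0.87 without the 2 farthest libraries. The relation was not particular to astrocyte markers. In the vHipp Nfe2l2 had r = 0.89 with microglial markers (rho = 0.84; r = 0.82 without 2 libraries) and 0.88 with endothelial markers (rho = 0.83; r = 0.80), and in the mPFC r = 0.83 with meningeal fibroblast markers (rho = 0.80; r = 0.81) and 0.73 with microglial markers (rho = 0.78; r = 0.76). Nqo1 had r = 0.79 with astrocyte markers in each region (rho = 0.77 and 0.68), and 0.76 and 0.65 without the 2 farthest libraries. With microglial markers it had r = 0.73 in each region (rho = 0.70 and 0.61; r = 0.73 and 0.54 without 2 libraries), and with neuronal markers in the mPFC r = -0.80 (rho = -0.82; r = -0.81). Srxn1 ran the other way, with r = -0.45 and -0.54 against astrocyte markers (rho = -0.50 and -0.48; r = -0.41 and -0.42 without 2 libraries), and followed neuronal markers in the vHipp (r = 0.71, rho = 0.65), as Gclc did there (r = 0.69, rho = 0.69), with r = 0.65 for each gene without 2 libraries. All of these were called after adjustment over the 240 relations (the largest adjusted permutation p, for Srxn1 in the mPFC, was 0.0254). An r with astrocyte markers as high as that of Nfe2l2 was reached by 0.0593% (mPFC) and 0.125% (vHipp) of the 15184 genes, and one as high as that of Nqo1 by 2.0% and 2.55%. An r as low as that of Srxn1 was reached by 11.4% and 11.1%, and with neuronal markers in the vHipp 5.57% had one as high as Srxn1 and 6.48% as high as Gclc. For Nqo1 in the mPFC, 0.263% had an r as low with neuronal markers and 0.751% one as high with microglial markers (3.79% in the vHipp). These sums share libraries and depth with the genes and do not tell whether a cell type is more abundant or more active.

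**Figure D3:**
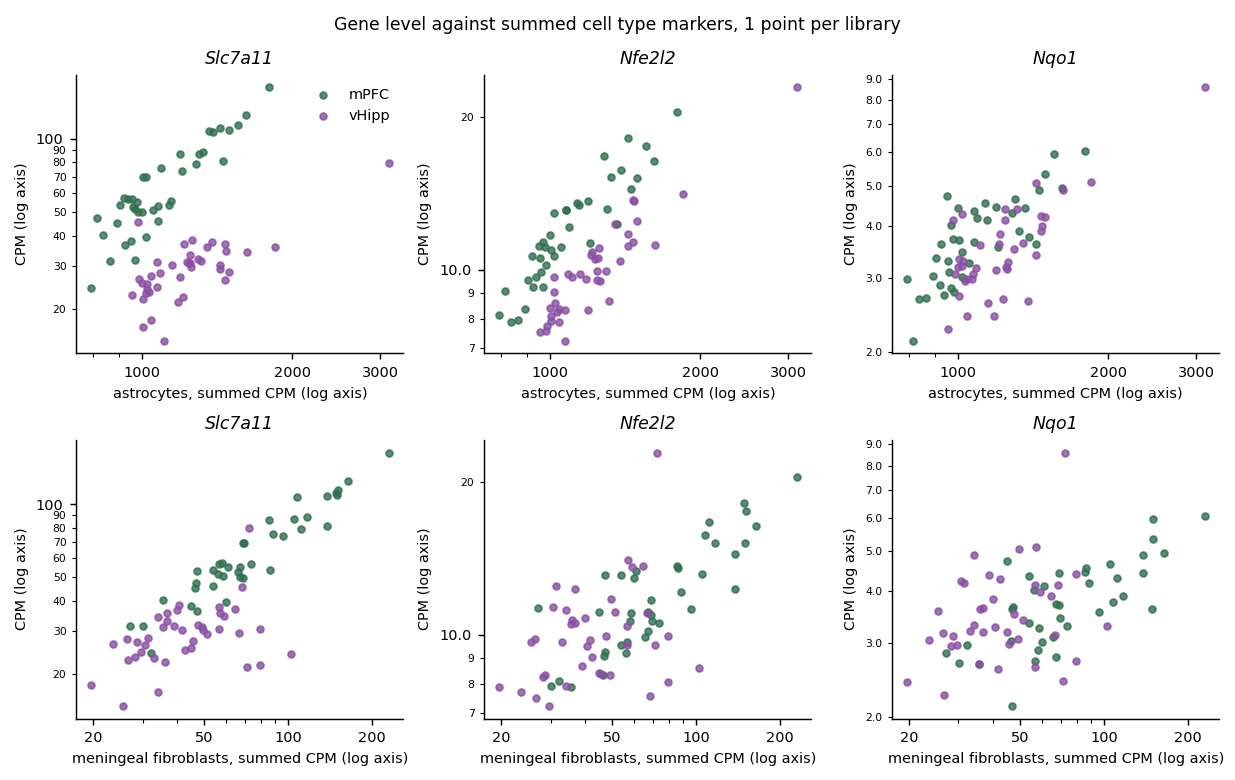
Level of Slc7a11, Nfe2l2 and Nqo1 in CPM (vertical axis, log scale) against the summed CPM of astrocyte (top) or meningeal fibroblast (bottom) markers (horizontal axis, log scale), with 1 point per library, colored by region. In the mPFC, Slc7a11 rose along with astrocyte and meningeal fibroblast markers up to the library of mouse 30 (163 CPM), and in the vHipp the library of mouse 11 stood apart at 3115 CPM of astrocyte markers.

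The relations of the 10 genes among themselves were set beside those of all pairs of the 15184 genes. Across mice, r between Slc7a11 and Nfe2l2 was 0.79 in the mPFC and 0.68 in the vHipp (rho = 0.74 and 0.57), between Nfe2l2 and Nqo1 0.72 and 0.69 (rho = 0.72 and 0.57), and between Slc7a11 and Nqo1 0.65 in each (rho = 0.62 and 0.48). Slc7a11 and Srxn1 had r = -0.50 and -0.59 (rho = -0.54 and -0.59). The subunits Gclc and Gclm had r = 0.51 in the mPFC (rho = 0.47) and 0.33 in the vHipp (rho = 0.37, adjusted permutation p = 0.166, not called), and Gpx4 and Srxn1 had 0.44 and 0.61 (rho = 0.44 and 0.59). The adjusted permutation p of the other pairs given, Gclc with Gclm in the mPFC included, was at most 0.0169, over 90 relations of which 28 were called. A size of r of at least 0.392, the smallest called, was reached by 35.6% (mPFC) and 37.8% (vHipp) of the pairs of the 10 genes, against 17.3% and 20.4% of all pairs. As high an r as Slc7a11 with Nfe2l2 was reached by 0.243% of all pairs in the mPFC and by 1.38% in the vHipp, as low an r as Slc7a11 with Srxn1 by 3.3% and 1.66%, and as high an r as Gclc with Gclm by 4.43% in the mPFC. The pairs share genes and libraries, so these shares are a description. Without the 2 libraries farthest from the median, mouse 11 among them for all these vHipp pairs except Gpx4 with Srxn1 and Gclc with Gclm, r was 0.75 and 0.53 for Slc7a11 and Nfe2l2, 0.66 and 0.49 for Nfe2l2 and Nqo1, 0.61 and 0.49 for Slc7a11 and Nqo1, -0.48 and -0.50 for Slc7a11 and Srxn1, 0.45 and 0.54 for Gpx4 and Srxn1, and 0.43 and 0.32 for Gclc and Gclm. In the vHipp, the library of mouse 11 was the highest of 40 for Slc7a11 (79.4 CPM, next 45.5), Nfe2l2 (22.9, next 14.1), Gclm (55.7, next 51.8) and Nqo1 (8.60, next 5.10), and the lowest for Txnrd1 (55.5) and Gclc (52.4).

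As a description over 39 mPFC and 40 vHipp libraries, the genes whose pattern was most like that of Slc7a11 included Slc7a2, a cationic amino acid transporter, and Ranbp3l (mean r over the regions 0.88 and 0.86). For Nfe2l2 they were Serpine2 (0.91), Gja1, the astrocytic gap junction protein connexin 43 and a gene of the marker list (0.90), and Pon2 (0.89). Gpx4 was most like Cox4i1, a subunit of cytochrome c oxidase (0.88), the ribosomal protein gene Rpl19 (0.86) and Oaz1 (0.85), and Srxn1 most like Psap (0.82), Pkm (0.81) and Tcf25 (0.81). Gclm was most like Chpt1, Acbd5 and Cd164 (0.88, 0.86 and 0.86), and Nqo1 most like Ntsr2, Itgb5 and Tcn2 (0.82, 0.80 and 0.80). Likeness was lower for Gclc (Ate1, Dlat and Etf1, 0.66 to 0.68), Txnrd1 (Nol9, Pip5k1a and Dcaf8, 0.56 to 0.59), Hmox1 (Ptgds, Btd and AU021092, 0.58 to 0.59) and Gsr (Tmem181c-ps, Mief1 and Ifit2, 0.47 to 0.48).

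Gsr and Gclm differed between mice in the same way in both regions. As deviations from group means, r between the mPFC and vHipp values of the same mouse was 0.80 for Gsr (rho = 0.71) and 0.77 for Gclm (rho = 0.72), with an adjusted permutation p of 0.000167 each (n = 39 mice, raw p = 1e-05, the smallest that 100000 shuffles can give). Of all 15184 genes with a mean of at least 1 CPM in both regions, 35.0% were called in this test, and 1.64% had an r as high as Gsr and 2.27% as high as Gclm. Without the 2 mice farthest from the median, r was 0.74 and 0.71. Gsr was lowest in both regions in mouse 2 (20.2 and 22.9 CPM), and Gclm in mouse 1 (35.4 and 32.3 CPM). Mice lay on the same side of their group means in both regions in 30 of 39 cases for Gsr and 26 of 39 for Gclm.

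Gpx4 also agreed between the regions, with r = 0.50 (rho = 0.48, adjusted permutation p = 0.00661; r = 0.43 without 2 mice). For Srxn1 r was 0.36 (adjusted permutation p = 0.111), and 0.13 without the 2 farthest mice, 1 of them mouse 33, the lowest in both regions (61.2 and 54.9 CPM). Gclc and Txnrd1 had r = 0.33 and 0.32 (adjusted permutation p = 0.118 and 0.0771). Slc7a11, Nfe2l2 and Nqo1 were not called in this test: r was 0.03 for Slc7a11, -0.04 for Nfe2l2 and -0.02 for Nqo1 (adjusted permutation p from 0.879 to 0.951), and Hmox1 had 0.12. Mouse 30, the highest of all for Slc7a11 in the mPFC (163 CPM), had 30.8 CPM in the vHipp, the 16th highest of 39.

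**Figure D4:**
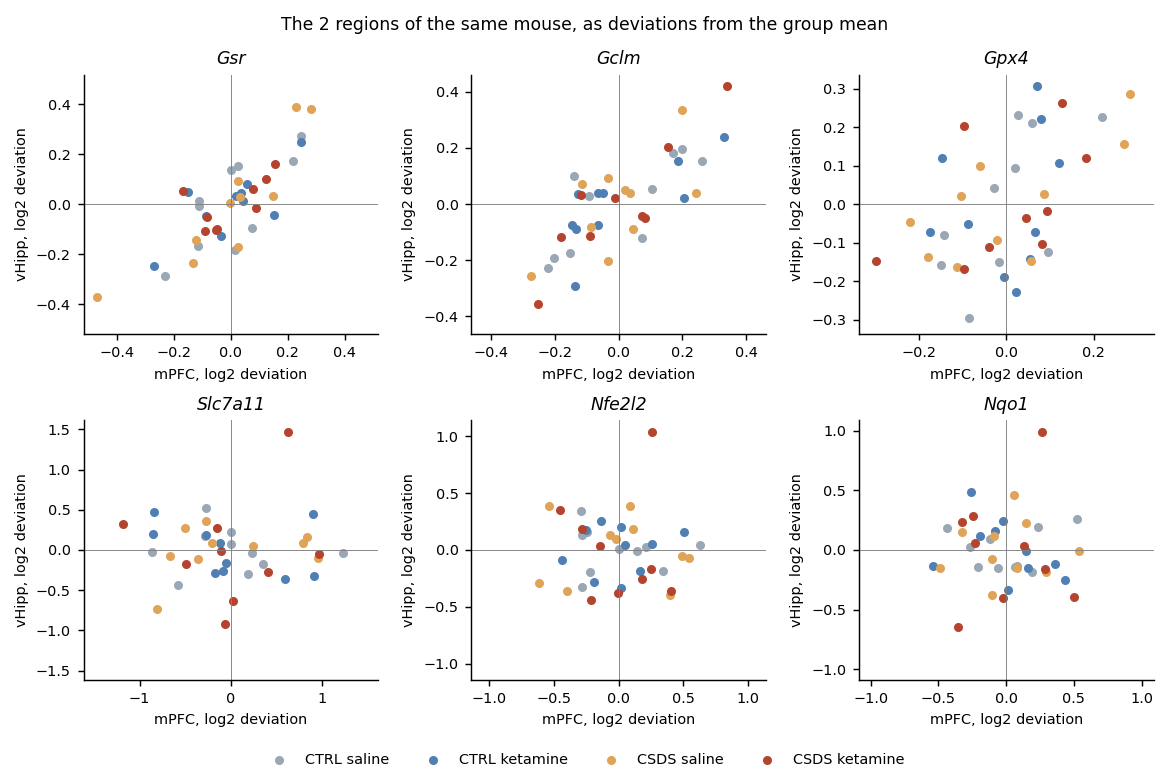
Deviation from the group mean (log2 CPM) in the mPFC (horizontal axis) and the vHipp (vertical axis), with 1 point per mouse, colored by group, for Gsr, Gclm, Gpx4, Slc7a11, Nfe2l2 and Nqo1. Points for Gsr (r = 0.80) and Gclm (r = 0.77) lay along the diagonal, whereas those of Slc7a11 (r = 0.03) did not.

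Stress and ketamine were compared in 7 contrasts within each region, and the stress effect was compared between the regions in saline-treated and in ketamine-treated mice. None of the 10 genes was called in any of these 16 comparisons, and of all genes edgeR called 0.0% in each. Contrasts within a region share groups of mice and are given side by side only. By DESeq2, 14 genes of all were called in the vHipp for stress over both treatments, none of the 10 among them, and 2210 fits of the 10 genes over the alternatives gave no adjusted p below 0.159 (Gpx4, vHipp, stress over both treatments, DESeq2).

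At an unadjusted p under 0.05 there were 11 of 160 values for the 10 genes. In the mPFC, 1 of the 10 genes reached that threshold for stress with saline, as did 2.94% of all genes, and 1 for the interaction of stress and ketamine, as did 5.31%. None reached it for stress with ketamine (5.8% of all genes), for stress over both treatments (3.52%), or for ketamine in CTRL mice (3.64%), in CSDS mice (4.32%) or over both (3.07%). In the vHipp, 2 of the 10 reached it for stress with saline (5.57%), 1 for stress with ketamine (5.42%), 1 for the interaction (2.84%) and 4 for stress over both treatments (9.71%), and none for ketamine in CTRL mice (2.88%), in CSDS mice (2.9%) or over both (3.39%). Without the library of mouse 11, 2 of the 10 reached it for stress over both treatments (8.53% of all genes), none for the interaction (3.11%), and 2 for stress with ketamine (4.14%). Between the regions, 1 of the 10 reached it for the stress effect with saline (5.5%), Txnrd1 at 0.13 (SE 0.059, unadjusted p = 0.0283, adjusted p = 0.894, edgeR), and none with ketamine (4.1%).

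Slc7a11 in the mPFC ranged from 38.0 to 163 CPM in saline-treated CTRL mice (median 69.4), 36.5 to 124.8 with CSDS and saline (54.2), 31.6 to 108.1 with CTRL and ketamine (53.2) and 24.4 to 109.1 with CSDS and ketamine (53.4). All 4 groups overlapped over most of their range. The stress effect was -0.08 in saline-treated mice (SE 0.26, adjusted p = 1.00, edgeR) and -0.04 in ketamine-treated mice (SE 0.27), and without the library of mouse 30 the former was 0.12. In the vHipp the ranges were 23.2 to 45.5 CPM (CTRL saline, median 31.0), 16.9 to 36.9 (CSDS saline, 30.0), 21.3 to 38.4 (CTRL ketamine, 26.9) and 14.8 to 79.4 (CSDS ketamine, 26.3). The stress effect was -0.13 with saline (SE 0.18) and 0.14 with ketamine (SE 0.18), and without the library of mouse 11 the latter was -0.11 (SE 0.14). None of these estimates was larger than its SE, and the stress effect did not differ detectably between the regions (mPFC minus vHipp 0.06 with saline, SE 0.33, and -0.19 with ketamine, SE 0.33). The difference with ketamine was 0.078 without the vHipp library of mouse 11, and that with saline lay between -0.12 and 0.26 over the alternatives.

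Txnrd1 in the vHipp was the gene with the lowest unadjusted p for stress. It ranged from 69.8 to 82.1 CPM in saline-treated CTRL mice (median 71.4) and from 59.5 to 71.4 in their CSDS counterparts (66.9), and from 67.0 to 81.7 (73.4) and 55.5 to 76.04 (69.0) in the ketamine-treated ones. CSDS mice had the lower medians under both treatments, with ranges that overlapped. The estimate over both treatments was -0.11 (SE 0.034, unadjusted p = 0.0033, adjusted p = 0.340, edgeR), and without mouse 11 it was -0.09 (unadjusted p = 0.00502). With saline it was -0.13 (SE 0.048, unadjusted p = 0.00841, adjusted p = 0.826). In the mPFC the 4 medians lay between 62.1 and 64.0 CPM.

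Gpx4 in the vHipp had 107.1 ± 14.0 CPM in saline-treated CTRL mice and 118.1 ± 12.5 in saline-treated CSDS mice, and 111.3 ± 14.2 and 120 ± 12.9 CPM with ketamine (SD, n = 10 each). The stress estimate over both treatments was 0.14 (SE 0.053, unadjusted p = 0.0117, adjusted p = 0.396, edgeR). Nqo1 in the vHipp ranged from 2.26 to 4.38 CPM in ketamine-treated CTRL mice (median 2.85) and from 2.43 to 8.60 in ketamine-treated CSDS mice (3.89), with medians of 3.43 in both saline groups. The stress estimate with ketamine was 0.47 (SE 0.15, unadjusted p = 0.00373, adjusted p = 0.896), and 0.32 without mouse 11 (unadjusted p = 0.0228), the highest library. Over both treatments it was 0.24 (SE 0.11, unadjusted p = 0.0303, adjusted p = 0.448, edgeR), and 0.17 without mouse 11 (unadjusted p = 0.0819). Its interaction of stress and ketamine was 0.46 (unadjusted p = 0.0407, adjusted p = 1.00) and 0.30 without that library (unadjusted p = 0.115). Nfe2l2 in the vHipp had a stress estimate of 0.20 over both treatments (SE 0.098, unadjusted p = 0.0489, adjusted p = 0.510), which was 0.12 without mouse 11 (unadjusted p = 0.148).

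In the vHipp contrast of stress over both treatments, at the unadjusted threshold, all 6 microglial markers, 5 of 6 endothelial and 4 of 6 astrocyte markers had estimates above 0 for CSDS minus CTRL, against 9.71% of all genes at that threshold in either direction, and none passed adjustment. With saline alone they included 4 of 7 choroid plexus markers (median 1.74), 3 of 6 endothelial, 3 of 6 hippocampal, 3 of 5 erythroid and 2 of 6 microglial markers, against 5.57% of all genes. The choroid plexus sum had a median of 26.3 CPM in CSDS and 23.0 CPM in CTRL mice with saline. Its highest values, 703 and 94.97 CPM, were those of mice 9 and 13 (CSDS, saline), which these counts include. With ketamine alone the markers included 5 of 6 microglial and 2 of 6 astrocyte markers, against 5.42%. Summed astrocyte markers in the vHipp were 982 to 1349 CPM (CTRL saline), 989 to 1472 (CSDS saline), 956 to 1436 (CTRL ketamine) and 1023.04 to 3115 (CSDS ketamine). Summed microglial markers were 183 to 287 (median 253), 233 to 373 (281), 222 to 310 (263) and 228 to 677 CPM (267) in the same order of groups. Their part in the estimates of Nfe2l2, Nqo1, Gpx4 and Txnrd1 was not tested.

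In the mPFC, Gsr alone of the 10 genes reached an unadjusted p under 0.05. It ranged from 26.6 to 37.3 CPM in saline-treated CTRL mice (median 31.5), from 20.2 to 34.4 in their CSDS counterparts (28.7), from 24.0 to 34.5 in ketamine-treated CTRL mice (29.5) and from 27.6 to 34.7 in ketamine-treated CSDS mice (30.0). The groups overlapped, and the lowest value was that of mouse 2. The stress estimate was -0.15 with saline (SE 0.070, unadjusted p = 0.0395, adjusted p = 1.00, edgeR), and the interaction of stress and ketamine was 0.26 (SE 0.10, unadjusted p = 0.0147, adjusted p = 0.898). Over the 4 stress and ketamine contrasts of each region, all 80 values of the 10 genes lay between -0.29 (Nqo1, ketamine in CTRL mice, mPFC) and 0.47 (Nqo1, stress with ketamine, vHipp).

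**Figure D5:**
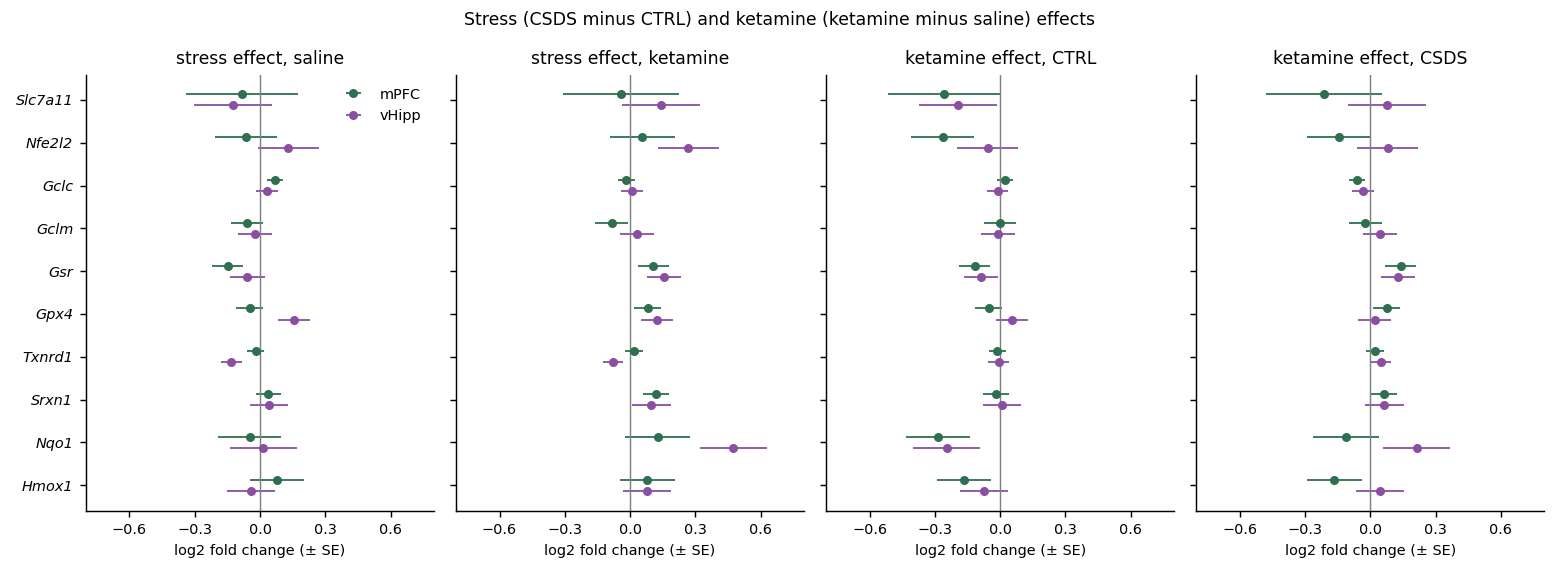
Log2 fold change of each gene (horizontal axis, with bars for the SE) for stress (CSDS minus CTRL) with saline and with ketamine and for ketamine (ketamine minus saline) in CTRL and in CSDS mice, in both regions. Estimates lay between -0.29 and 0.47, and none passed adjustment over all genes.

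The wider pathway was described from 8 lists that hold other genes beside the 10, in a contrast that called 24.5% of all genes higher and 24.4% lower in the mPFC, 48.9% in all. Between the regions, the list of 12 genes of glutathione synthesis and reduction had 1 gene higher in the mPFC, 7 lower and 4 not called, with a median of -0.17 (all genes, -0.0003). Gss, glutathione synthetase, was lower by the largest amount, with 11.1 CPM in the mPFC against 22.2 CPM in the vHipp (-0.99, SE 0.052, adjusted p = 9.1e-30, edgeR). Ggct, which breaks down gamma-glutamyl peptides (-0.66), Glo1, a glutathione-dependent glyoxalase (-0.33), the glutaredoxins Glrx (-0.27) and Glrx5 (-0.23) and Oplah (-0.25) were also lower. Of the 16 genes of cystine and cysteine supply, 4 were higher, 7 lower and 5 not called (median -0.08). Fewer of them were called when set 4 or set 5 was left out, as given below. Slc7a11 was 1 of the 4, beside Cdo1, which oxidizes cysteine (0.28), and Chac1, which degrades glutathione (0.22), whereas Slc1a1, the neuronal transporter of glutamate and cysteine (-0.41, SE 0.026), Ggt7 (-0.32) and Ggt1 (-0.24) were lower.

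Among 17 glutathione peroxidases and transferases, 7 were higher in the mPFC, 4 lower and 6 not called (median 0.08), led by Gstt1 (1.25, SE 0.079), Gpx3 (0.91), Mgst3 (0.72), Gpx8 (0.58) and Mgst1 (0.52), with Gstm7 lower (-0.65). Of 13 thioredoxin and peroxiredoxin genes, 3 were higher, 4 lower and 6 not called (median -0.01). Prdx4, the peroxiredoxin of the endoplasmic reticulum, was higher (0.84, SE 0.041), as were Txnip, which binds thioredoxin (0.56), and Prdx1 (0.13), and the mitochondrial Prdx5 (-0.26) and Prdx2 (-0.13) were lower beside Txnrd1. Of 14 genes of lipid peroxidation and ferroptosis, 3 were higher, 5 lower and 6 not called (median -0.03), with Fdft1 of the sterol pathway (0.31), Alox12b (0.27) and Aifm2 (0.20) higher and Dhodh (-0.25), Lpcat3 (-0.24) and Acsl4 (-0.19) lower.

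Of NRF2 and its regulators, 5 of 14 were higher in the mPFC, 3 lower and 6 not called (median -0.005). Beside Nfe2l2, the partner gene Maff (0.66, at a mean of 0.55 CPM in the mPFC), Bach2, a repressor at related elements (0.39), the partner gene Mafg (0.25) and Dpp3 (0.22) were higher, and Cul3, of the ligase that degrades NRF2, was lower (-0.18). Of 28 NRF2 target enzymes, 5 were higher, 10 lower and 13 not called (median -0.03). Beside Slc7a11, Osgin1 (0.76, at means of 0.64 CPM in the mPFC and 0.38 in the vHipp) and Blvra, biliverdin reductase (0.37), were higher. Me1, which makes NADPH (-0.68, SE 0.046), Ephx1 (-0.42) and the ferritin gene Fth1 (-0.36) were lower. Of 15 genes of the ATF4 amino acid response, to which Slc7a11 also belongs, 5 were higher, 4 lower and 6 not called (median 0.05), with Ddit4 (-0.73), Sesn2 (-0.56) and Shmt2 (-0.23) lower and Nupr1 (0.44) higher beside Slc7a11 and Chac1. No gene of the 8 lists was called in the stress, ketamine or region by stress comparisons by edgeR, where 81 of 2064 list values, with genes of several lists counted in each, had an unadjusted p under 0.05, against 2.84% to 9.71% of all genes in each comparison.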

How the data were processed

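The authors punched both regions from frozen sections, prepared libraries that keep the strand of the mRNA and read both ends of the fragments. They deposited raw counts per gene of GRCm38, as whole numbers without normalization. Conversion to reads used bcl2fastq 2.20.0.422. The aligner, the counting program and its strand setting were not given in the sources used here. According to the methods, 1 outlier and low-quality RNA samples were removed. The samples held no mPFC library of mouse 5 (CSDS, ketamine).

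Groups and mouse numbers came from the labels. Of 55471 identifiers, 55144 were given a symbol, and positions and exon lengths were those supplied with the counts. GENCODE M21 (GRCm38) held 55230 of the identifiers, 54937 with the same start and end, and was used to find overlapping genes. CPM values used TMM library sizes over all libraries. Genes with a total above 10 and counts in more than 3 libraries were tested with edgeR 4.0.16 (quasi-likelihood test, 1 mean per group, Benjamini-Hochberg adjustment over all genes, called at 0.05; the SE is the fold change over the root of F), in 28993 genes of the mPFC, 28991 of the vHipp and 31534 over both. The closest pair of libraries in each group differed by 4.84 to 9.83 times the variance of counting, so none was counted as a duplicate.

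The 10 genes and all lists were chosen with earlier results of these data known. Named list genes were those called with the largest change, at most 6 per list. For each of the 10 genes, those most like it in pattern were the 3 with the highest mean r, of which 1 is not reported here. 1 gene of the 16 in the ATF4 list was not matched. Relations across mice used log2(CPM + 0.5) as deviations from group means, with 100000 shuffles of mice within groups, and r over all genes and pairs above 1 CPM as their background. The pairing of the regions came from the mouse number, the same animal. In that pairing, 5312 of 15184 genes were called, 5292 of them with an r above 0.

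Alternatives were DESeq2 1.42.0, RLE scaling, no low-count filter, filterByExpr, a covariate for the set of mouse numbers, each of 5 sets left out, the compared groups alone, blocks of mouse or run, and for the agreement a pseudocount of 0.1 or 2. Leaving out the library of mouse 30 (mPFC), 11 or 9 (vHipp) was chosen after seeing the data. The tests were checked on simulated counts with R 4.3.3 and Python 3.11.15 (scipy 1.17.1).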

Additional observations from a re-analysis of the deposited data

Results flagged for a closer look

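Of 80 sets of values (10 genes in 8 groups of 9 or 10 libraries), 7 held a library far from the rest of its group, where chance gives about 5 in 100. The vHipp library of mouse 11 (CSDS, ketamine) accounted for 4 of them. It was highest for Slc7a11 with 79.43 CPM against 35.84 in the next library of the group, for Nfe2l2 with 22.9 CPM against 14.07 and for Nqo1 with 8.598 CPM against 5.10, and lowest for Txnrd1 with 55.47 CPM against 65.23. Its summed astrocyte markers were 3115 CPM, against a median of 1213 CPM in the other vHipp libraries, and their part in these values was not tested. In the mPFC, Slc7a11 stood out in mouse 30 (CTRL, saline) with 163.0 CPM against 88.4 in the next, in the library with the highest meningeal fibroblast markers (229 CPM) and astrocyte markers (1794 CPM). The lowest Slc7a11 value of saline-treated CSDS mice in the vHipp, 16.92 CPM in mouse 18, lay below the next at 26.3 CPM. Gclc was highest among saline-treated CSDS mice of the mPFC in mouse 7, with 62.6 CPM against 58.59.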

How the results depend on the processing

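Between the regions, 3 of the 10 genes were called without set 2, 4 without set 1, 6 without set 3 or with the set as a covariate and 7 with the mouse as a replicate block, against 5 over all libraries. The block called Gclm and Gsr in addition and ended no call of the other genes. For cystine and cysteine supply 7 genes were called without set 4 and 6 without set 5, against 11. The sign of 2 differences that were not called turned: Gpx4 was 0.00080 with DESeq2, 0.00086 with RLE scaling, 0.0044 without the filter, 0.019 without set 1, 0.014 without set 3 and 0.016 without set 4, and Nqo1 was -0.034 without set 1. Nqo1 was called without set 3 (0.19, adjusted p = 0.0194) and Hmox1 without set 1 (-0.17, adjusted p = 0.0256). The stress effect of Slc7a11, never called, turned in the mPFC with saline without set 3 (0.21) and mouse 30 (0.12), with ketamine without set 1 (0.022) and set 5 (0.056), in the vHipp with ketamine without mouse 11 (-0.11), and for the difference between regions with saline without set 2 (-0.12) and set 5 (-0.018) and with ketamine without mouse 11 (0.078). In the agreement of the regions, Txnrd1 passed with RLE scaling (r = 0.39, adjusted permutation p = 0.0318), and the calls of Gsr, Gclm and Gpx4 held under all 3 alternatives. Of all genes, DESeq2 called 14 against 0 for stress in the vHipp over both treatments, and 1 was called for the region difference of the stress effect with ketamine without set 1. The causes were not tested.

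Low counts limit Nqo1 and Hmox1, with as few as 40 and 42 counts in a library. The SE of the stress effect on Slc7a11 within a treatment was 0.18 to 0.27, and over both treatments 0.19 in the mPFC and 0.13 in the vHipp.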
